A study of Mus musculus with 6 samples.

Results

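The integrin and laminin subunits are the 37 genes of the expression table whose symbols name an integrin α chain (18 genes), an integrin β chain (8 genes) or a laminin chain (11 genes), out of 21671 genes. They were picked out by symbol alone, though with earlier results of these data known. RNA-Seq was performed on 6 libraries of cells sorted from the gastrocnemius muscles of mdx mice, which lack dystrophin and are a model of Duchenne muscular dystrophy. All mice carried the ITGAM-DTR transgene, in which the human ITGAM promoter drives the receptor for diphtheria toxin (DT) fused to EGFP, so that DT depletes macrophages and monocytes, while neutrophils are spared. Mice of both sexes, 10 to 12 weeks old, were injected in the muscle with PBS or DT every 4 days, and muscles were collected 15 days after the first injection. SCs CTRL (2 libraries) are satellite cells of PBS-injected mice, and SCs DT (2 libraries) are satellite cells of DT-injected mice. Both were sorted as negative for CD31, CD45, Ter119 and Sca1 and positive for α7-integrin. α7Sca1 cells (2 libraries) are lineage-negative cells on which α7-integrin and Sca1 were both detected. They were collected from DT-injected mice only, so that in their comparison with SCs CTRL the cell type and the injection cannot be told apart. Each library is a pool of 2 mice.

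Integrins are receptors made of an α and a β chain that span the cell membrane and tie the extracellular matrix to the actin skeleton. Laminins are trimers of an α, a β and a γ chain and form the sheet of the basement membrane. In skeletal muscle the α7 and β1 integrin chains form the receptor for laminins that contain the α2 chain, the chain missing in a congenital muscular dystrophy. Satellite cells lie between the muscle fiber and this sheet, and the integrins with a β2 chain belong to leukocytes, among them macrophages and neutrophils.

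Values are RPKM, read numbers corrected for gene length and for library size. Comparisons of levels between genes, such as shares and ratios, rest on that correction, which could not be checked here. As deposited, all 6 libraries follow nearly the same distribution of values, the depth of each is unknown, and a change shared by most genes would not be visible. Comparisons between groups used limma, fitted once to log2(RPKM + 1) of the 6 libraries, for 13934 genes with a maximum above 0.25 RPKM, with a threshold of 0.05 for the Benjamini-Hochberg adjusted p. Differences are given on that log2 scale, which understates changes of genes of low RPKM. Of the 37 members, 34 passed this filter, and Itgad, Itgal and Lama1 did not. With 2 libraries against 2, an exact permutation test cannot give a p below 0.333, so the calls rest on the spread that limma estimates. Of 9 satellite cell genes, 8 fell in α7Sca1 cells against each SC group and the other, Sdc4, stood at 261 to 337 RPKM in SCs and at 215 and 344 RPKM in α7Sca1 cells. Myf5, a myogenic factor, was at 38.4 to 67.6 RPKM in SCs and at 2.08 and 4.17 RPKM in α7Sca1 cells. Between the SC groups, 7 of the 9 were lower in both SCs DT libraries than in both SCs CTRL libraries, as were 25.1% of all genes tested, and Calcr, the calcitonin receptor of quiescent satellite cells, fell (12.2 and 13.9 RPKM in SCs CTRL, 1.56 and 2.21 in SCs DT, adjusted p = 0.00722). That call of Calcr held in 6 of 14 alternatives and was lost without any single library (adjusted p = 0.0526 to 0.152). Chodl, another satellite cell gene, was at 94.2 and 52.6 RPKM, then 12.3 and 17.7 RPKM (adjusted p = 0.0685). Ly6a, which encodes Sca1, was at 21.6 to 55.2 RPKM in SCs and at 344 and 248 RPKM in α7Sca1 cells. The SC libraries also held the smooth muscle gene Acta2 (412 to 875 RPKM) and the macrophage gene Lyz2 (138 to 622 RPKM). α7Sca1 cells held the adipocyte genes Adipoq (1006 RPKM in both) and Cidec (445 and 534 RPKM). T cell genes stood at or below 0.69 RPKM in every library.

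Transcript levels of the members spanned a wide range and were led by a few chains. The mean reached 30 RPKM for 2 members in SCs CTRL, 2 in SCs DT and 1 in α7Sca1 cells. It lay under 1 RPKM for 18, 19 and 20 members, respectively. Itga7 was the most abundant integrin chain in every library and made up 61.5% to 75.7% of the summed RPKM of the 18 α chains. Itgb1 was the most abundant β chain in every library. The summed RPKM of the 37 members was 240 and 208 in SCs CTRL, 250.1 and 221 in SCs DT, and 159 and 119 in α7Sca1 cells. The 2 groups of SCs overlapped in this sum, and both α7Sca1 libraries lay below all SC libraries. In bulk libraries such as these, fewer cells of a type and less RNA per cell cannot be told apart.

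**Figure D1:**
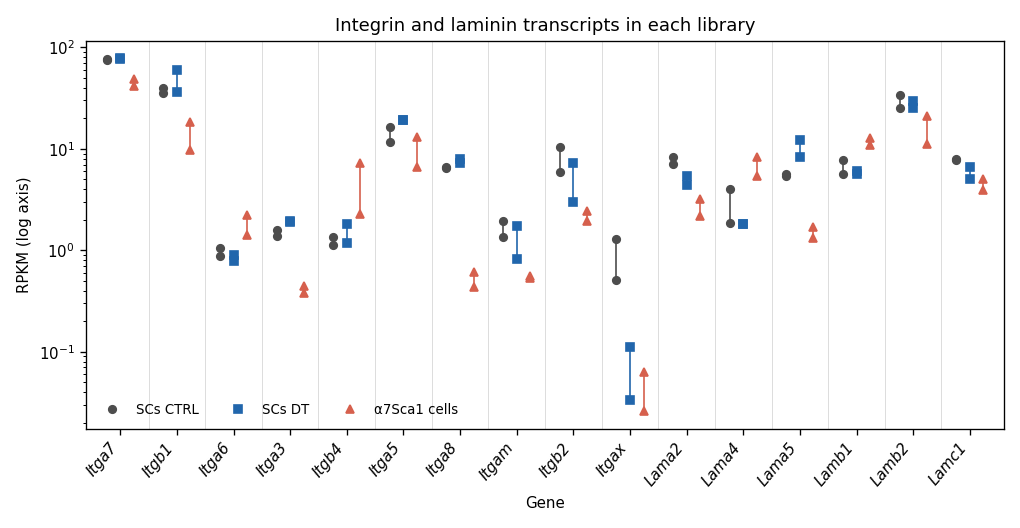
RPKM (log axis) of 16 integrin and laminin genes in the 2 libraries of SCs CTRL (circles), SCs DT (squares) and α7Sca1 cells (triangles); the line joins the libraries of a group. Itga8 is at 6.48 to 8.03 RPKM in the SC libraries and at 0.614 and 0.434 RPKM in α7Sca1 cells, while Lama4 and Lamb1 are highest in α7Sca1 cells.

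In the comparison of SCs DT with SCs CTRL, which asks how the depletion of macrophages changes satellite cells, no member passed the threshold. In limma 0 of 34 members were called higher, where 0.352% of all genes tested were (49 genes), and 0 were called lower, where 0.0933% were (13 genes). At an unadjusted p under 0.05 there were 4 members, or 11.8%, against 10.4% of all genes. Lama5 and Lamb3 were higher and Itgax and Lama2 lower. The median log2 difference was 0.01 over the members and -0.01 over all genes. The libraries of the 2 groups did not overlap for 9 members that were higher and 7 that were lower in SCs DT, 16 of 34, while 46.8% of all genes did not overlap.

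In α7Sca1 cells against SCs DT, 4 of 34 members rose (11.8%), where 14.6% of all genes did, and 8 fell (23.5%), where 15.6% of all genes did. Those that rose were Lama4, Lamb1, Itgae and Itga6. Those that fell were Itga8, Lama5, Itga3, Itgb6, Itgb1, Itgav, Itga7 and Lama2. The median log2 difference of the members was -0.14, and that of all genes -0.04. Against SCs CTRL, 5 members rose (14.7%), where 15.1% of all genes did, and 13 fell (38.2%), where 17.3% of all genes did. Itgae, Lamb1, Lama4 and Lamb3 were among those that rose. Itga8, Lama5, Lama2, Itga3, Itgax, Itgb1, Itgb2, Itgb6, Itgam, Itgav, Itga7, Lamc1 and Itga4 fell. The medians were -0.15 for the members and -0.06 for all genes. After rescaling of the libraries by median ratios, 6 members rose and 9 fell against SCs CTRL, and 4 rose and 6 fell against SCs DT. These comparisons use the same α7Sca1 libraries, so their calls are not independent of each other. Itgae passed the filter only through the α7Sca1 libraries, and Itgax only through the SCs CTRL libraries. The calls of Itgae and Itgax are therefore not independent of the filter. By class, the laminin receptor integrins gave 1 rise and 3 falls of 5 against SCs DT and 0 and 3 against SCs CTRL, and the laminin chains gave 2 rises and 2 falls of 10 and 4 and 3 of 10.

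**Figure D2:**
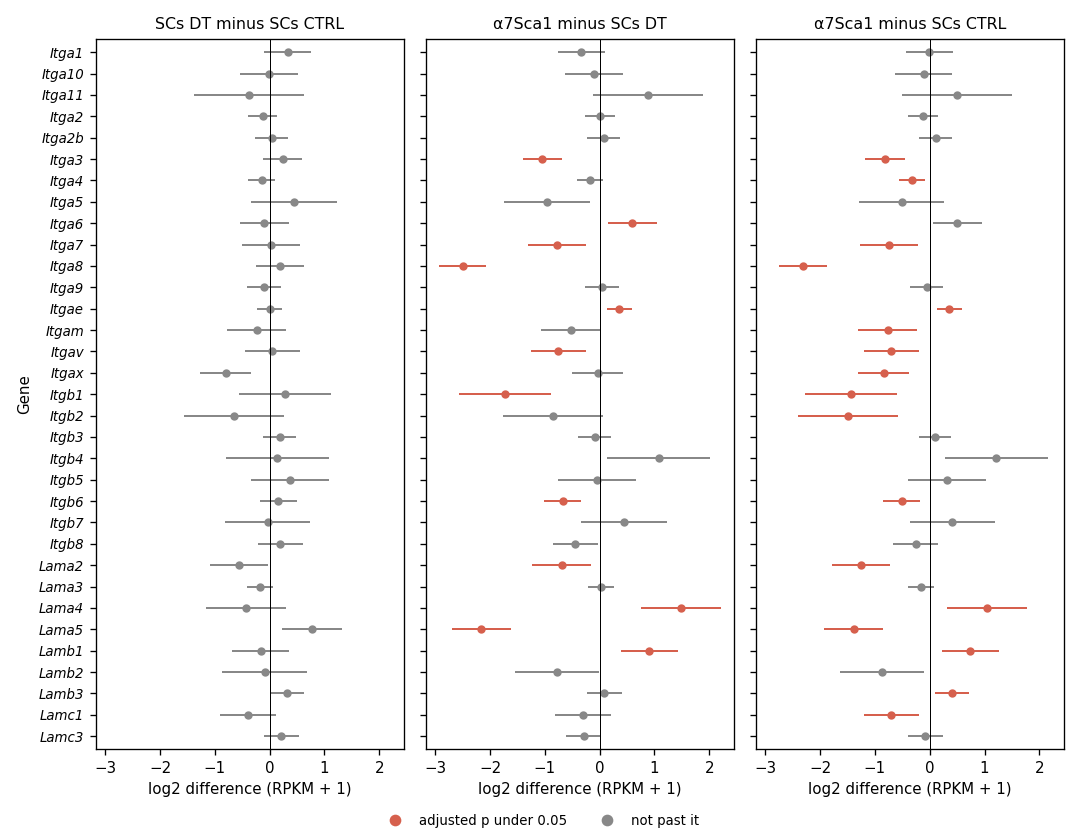
Differences on the log2(RPKM + 1) scale, with 95% confidence intervals from limma, of 33 of the 34 members tested in the 3 comparisons (2 libraries a group); red marks an adjusted p under 0.05 over all 13934 genes tested. No member is red in SCs DT against SCs CTRL, and Itga8 has the lowest value in both comparisons of α7Sca1 cells, -2.50 and -2.31.

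Among the laminin receptor chains, Itga7 encodes the α7 chain, whose protein was used to sort both cell types, and lies at chr10:128370869-128395333 on the plus strand of mm9. Its level was 75.0 and 77.6 RPKM in SCs CTRL, 78.3 and 77.6 in SCs DT, and 41.8 and 48.5 in α7Sca1 cells. The SC libraries lay within a narrow band and both α7Sca1 libraries lay below it. Itga7 fell in α7Sca1 cells by 0.78 on the log2 scale against SCs DT (standard error 0.22, adjusted p = 0.0337) and fell by 0.75 against SCs CTRL (standard error 0.22, adjusted p = 0.0370). Each call held in 7 of 14 alternatives. It was lost with median-ratio rescaling, a replicate block or the 2 groups alone, and without any single SC library, with adjusted p from 0.0502 to 0.175 against SCs DT and from 0.057 to 0.148 against SCs CTRL.

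Itgb1, the β1 chain shared by the α7 receptor and many others, lies at chr8:131209554-131257100. It was at 40.1 and 35.9 RPKM in SCs CTRL, 59.5 and 36.4 in SCs DT, and 18.2 and 9.73 in α7Sca1 cells. No α7Sca1 library reached the lowest SC library. Itgb1 fell by 1.73 against SCs DT (standard error 0.35, adjusted p = 0.0103), and the call was lost, of 14 alternatives, only without SCs DT replicate 1 (adjusted p = 0.0967). Against SCs CTRL it fell by 1.44 (standard error 0.35, adjusted p = 0.0190), with adjusted p of 0.122 and 0.107 without SCs CTRL replicate 1 or 2 and 0.0688 without α7Sca1 replicate 2. The ratio of Itga7 to Itgb1 RPKM was 1.31 to 2.16 in the SC libraries and 2.30 and 4.98 in α7Sca1 cells.

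The other laminin-binding chains were less abundant and differed in direction. Itga6, which pairs with β1 or β4, was at 1.05 and 0.875 RPKM in SCs CTRL, 0.894 and 0.779 in SCs DT, and 2.21 and 1.41 in α7Sca1 cells. It rose against SCs DT by 0.60 (standard error 0.18, adjusted p = 0.0427) and not past the threshold against SCs CTRL (0.50, adjusted p = 0.0711, and 0.0269 without α7Sca1 replicate 2). The call against SCs DT held in 6 of 14 alternatives, and among the fits with a library left out only without α7Sca1 replicate 2 (adjusted p = 0.0208), the other 5 giving 0.091 to 0.181. The following pair was chosen after the values were seen. Itga3, the α3 chain, was at 1.38 to 1.93 RPKM in the SC libraries and at 0.443 and 0.384 RPKM in α7Sca1 cells, and fell by 1.05 against SCs DT (adjusted p = 0.00212) and fell by 0.81 against SCs CTRL (adjusted p = 0.00558). Against SCs CTRL the adjusted p was 0.0549 without SCs CTRL replicate 2. Itgb4, the β4 chain of hemidesmosomes in epithelia, was at 1.13 to 1.82 RPKM in the SC libraries and at 7.25 and 2.30 RPKM in α7Sca1 cells. Its differences of 1.07 and 1.22 did not pass the threshold (adjusted p = 0.0791 against SCs DT and 0.0519 against SCs CTRL). They passed in 2 and 6 of 14 alternatives, among the fits with a library left out only without α7Sca1 replicate 2, the lower library (adjusted p = 0.00746 and 0.00604).

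Among the chains of receptors for the RGD motif of fibronectin and related ligands, Itga8 and Itga5 were the most abundant in the SC libraries. In α7Sca1 cells Itga5 led, followed by Itgb5 (3.77 and 1.96 RPKM). Itga8 encodes the α8 chain, which pairs with β1 and binds nephronectin, and lies at chr2:12028259-12223547 on the minus strand. It stood at 6.48 and 6.56 RPKM in SCs CTRL, 8.03 and 7.20 in SCs DT, and 0.614 and 0.434 in α7Sca1 cells. Every SC library was above 6 RPKM and no α7Sca1 library reached 1 RPKM. The mean RPKM was 14.5 times lower than in SCs DT and 12.4 times lower than in SCs CTRL. On the log2 scale Itga8 fell by 2.50 against SCs DT (standard error 0.18, adjusted p = 0.0002) and fell by 2.31 against SCs CTRL (standard error 0.18, adjusted p = 0.000199). Both calls held under all 14 alternatives. Npnt, which encodes nephronectin, was at 1.68 to 2.78 RPKM in SCs and at 0.300 and 0.293 RPKM in α7Sca1 cells, and fell as well (log2 difference -1.48, adjusted p = 0.00189 against SCs DT, and -1.29, adjusted p = 0.00313 against SCs CTRL), calls that held under all 14 alternatives.

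Itga5, the α5 chain of the fibronectin receptor, was at 16.3 and 11.6 RPKM in SCs CTRL, 19.2 and 19.1 in SCs DT, and 13.2 and 6.58 in α7Sca1 cells. Its difference of -0.96 against SCs DT did not pass the threshold (adjusted p = 0.0619), and did so in 2 of 14 alternatives, without α7Sca1 replicate 1 (adjusted p = 0.0127) and with a replicate block (adjusted p = 0.0334). The remaining RGD receptor chains were at or below 3.77 RPKM. Of the 8 chains of this class, 0 rose and 3 fell in α7Sca1 cells in both comparisons, namely Itga8, Itgav and Itgb6, where 15.6% of all genes fell against SCs DT and 17.3% against SCs CTRL. Itgav and Itgb6 were called in 7 of 14 and 12 of 13 alternatives against SCs DT. The 4 collagen receptor α chains gave no call in any comparison, and Itga11 differed between SCs CTRL replicates 1 and 2 (2.89 and 0.624 RPKM). The fibroblast gene Col1a1 also differed between them (2287 and 192 RPKM). Its part in the level of Itga11 was not tested.

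The leukocyte integrin chains were mostly low in all sorted cells, and Itgam, Itgb2 and Itgax had their highest means in SCs CTRL. Itgam, the mouse gene of the αM chain, was at 1.93 and 1.37 RPKM in SCs CTRL, 0.831 and 1.73 in SCs DT, and 0.562 and 0.531 in α7Sca1 cells. Itgb2, the β2 chain that pairs with it, was at 10.5 and 5.94 RPKM in SCs CTRL, 2.97 and 7.22 in SCs DT, and 2.42 and 1.96 in α7Sca1 cells. The SC groups overlapped for both genes and all SC libraries lay above the α7Sca1 libraries. Itgb2 fell in α7Sca1 cells against SCs CTRL by 1.49 (standard error 0.38, adjusted p = 0.0229), and Itgam fell by 0.77 (standard error 0.22, adjusted p = 0.0336). Each call held in 9 of 14 alternatives and was lost with no filter on low values, without either SCs CTRL library and without either α7Sca1 library, with adjusted p from 0.0646 to 0.167 for Itgb2 and from 0.0862 to 0.191 for Itgam. Against SCs DT neither passed (-0.84, adjusted p = 0.136, and -0.53, adjusted p = 0.108).

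Itgax, the αX chain of dendritic cells and macrophages, was chosen after the values were seen. It was at 1.31 and 0.508 RPKM in SCs CTRL, 0.0336 and 0.112 in SCs DT, and 0.0261 and 0.0638 in α7Sca1 cells. No library of DT-injected mice reached the lower SCs CTRL library, and Itgax passed the filter only through the SCs CTRL libraries. In SCs DT it differed from SCs CTRL by -0.80 (95% confidence interval -1.24 to -0.36, unadjusted p = 0.00358, adjusted p = 0.174), and in α7Sca1 cells it fell by 0.84 against SCs CTRL (adjusted p = 0.0146). The latter call held in 12 of 14 alternatives and was lost without either α7Sca1 library (adjusted p = 0.0652 and 0.0599). Itgae, the αE chain of mucosal T cells, was also chosen after the values were seen and rose in α7Sca1 cells (0.375 and 0.323 RPKM, against 0.0375 to 0.0673 RPKM in the SC libraries), a call held in 10 of 13 alternatives in each comparison, with the T cell genes at or below 0.442 RPKM there. Of the 11 macrophage and monocyte genes, 10 were lower in both α7Sca1 libraries than in every SCs CTRL library, where 38.1% of all genes tested were, and 6 were lower in both SCs DT libraries, where 25.1% were. Their summed level was 1006 and 552 RPKM in SCs CTRL, 277 and 554 in SCs DT, and 306 and 280.1 in α7Sca1 cells, where Cd14 alone gave 194 and 197 RPKM. Emr1, the gene of F4/80, was at 8.96 and 4.86, 1.91 and 3.50, and 1.32 and 1.15 RPKM, in that order, and no gene of the list stood at 0. Of 5 neutrophil genes, 3 were higher in both SCs DT libraries, where 21.6% of all genes were, and 1 was lower. S100a8, a neutrophil calcium-binding protein, was at 4.98 and 3.35 RPKM in SCs CTRL, 19.4 and 24.8 in SCs DT, and 7.34 and 7.89 in α7Sca1 cells. It rose in SCs DT (log2 difference 2.17, adjusted p = 0.0152), a call of S100a8 that held in 6 of 14 alternatives and was lost without any single library (adjusted p = 0.0724 to 0.215). The part of macrophage and neutrophil RNA in the levels of these integrin chains was not tested.

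**Figure D3:**
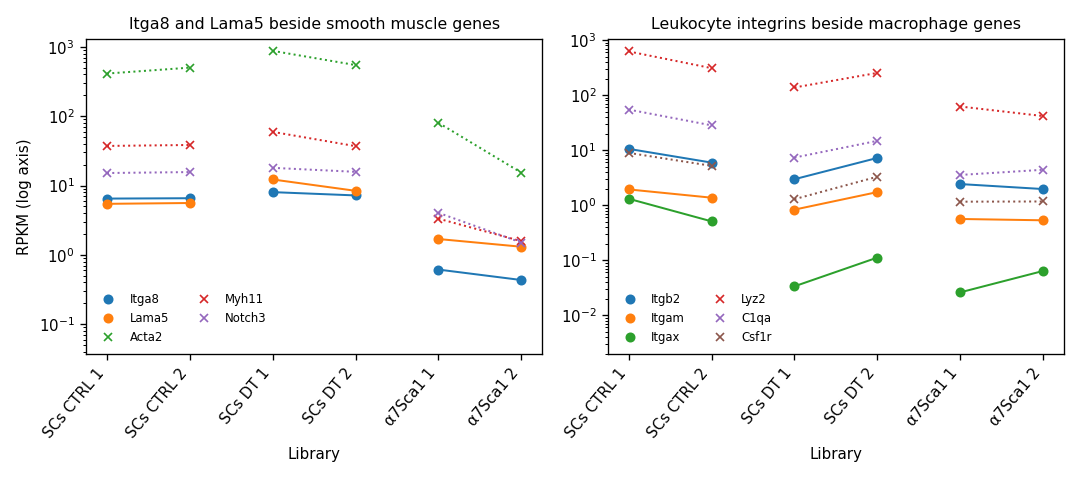
RPKM (log axis) by library of Itga8 and Lama5 with 3 pericyte and smooth muscle genes (left) and of 3 leukocyte integrin chains with 3 macrophage genes (right); circles are members, crosses are marker genes, and lines join the 2 libraries of a group. Itga8, Lama5 and Myh11 are all lowest in α7Sca1 cells, and Itgax, C1qa and Csf1r are all highest in SCs CTRL. The marker genes drawn are 3 of 7 and 3 of 11 genes of their lists, and not every gene left out follows them. Kcnj8 overlaps between α7Sca1 cells and SCs CTRL, and Cd14 is highest in α7Sca1 cells.

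The laminin α chains differed in composition between the groups. Lama2 encodes the α2 chain of the muscle fiber basement membrane and lies at chr10:26701094-27336748. It was at 8.37 and 7.02 RPKM in SCs CTRL, 4.39 and 5.41 in SCs DT, and 3.17 and 2.17 in α7Sca1 cells, with no overlap between the groups. Lama5, the α5 chain of vessel and epithelial basement membranes (chr2:179911078-179960564), was at 5.44 and 5.60 RPKM in SCs CTRL, 12.2 and 8.39 in SCs DT, and 1.69 and 1.31 in α7Sca1 cells, again with no overlap. Lama4, the α4 chain of vessel and fat basement membranes (chr10:38685321-38829994), was at 4.0 and 1.86 RPKM in SCs CTRL, 1.80 RPKM in both SCs DT libraries, and 8.41 and 5.46 RPKM in α7Sca1 cells, above all SC libraries. As a share of the summed RPKM of the 5 α chains, Lama2 gave 46.3% and 47.7% in SCs CTRL, 23.7% and 34.4% in SCs DT, and 23.7% in both α7Sca1 libraries. Lama5 gave 30.1% and 38.0%, then 66.1% and 53.3%, then 12.6% and 14.4%. Lama4 gave 22.1% and 12.6%, then 9.74% and 11.4%, then 62.8% and 59.9%. The leading α chain was thus Lama2 in SCs CTRL, Lama5 in SCs DT and Lama4 in α7Sca1 cells. These shares are given with no test. In limma neither Lama2 nor Lama5 was called between the SC groups (adjusted p = 0.437 and 0.266). Of all genes tested, 46.8% did not overlap between the SC groups. Between α7Sca1 cells and SCs DT 67.2% did not overlap, and between α7Sca1 cells and SCs CTRL 68.1%.

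**Figure D4:**
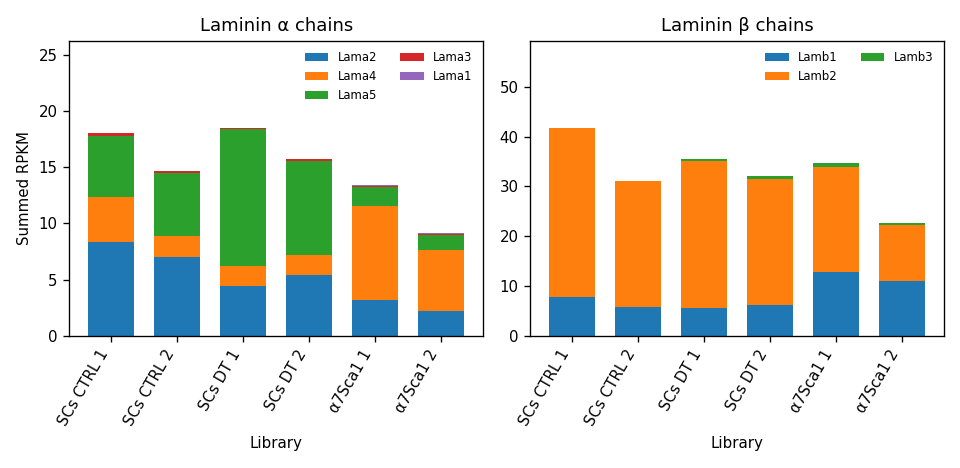
Summed RPKM of the laminin α and β chains in each of the 6 libraries, stacked by gene. Lama2 gives the largest part of the α chains in SCs CTRL, Lama5 in SCs DT and Lama4 in α7Sca1 cells, and Lamb1 gives 36.8% and 48.6% of the β chains in α7Sca1 cells against 15.9% to 19.0% in SC libraries.

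In α7Sca1 cells Lama5 fell by 2.16 against SCs DT (standard error 0.22, adjusted p = 0.000658) and fell by 1.39 against SCs CTRL (standard error 0.22, adjusted p = 0.00376). The former held under all 14 alternatives, and the latter under all but the fit without SCs CTRL replicate 2 (adjusted p = 0.0503). Lama2 fell by 1.25 against SCs CTRL (standard error 0.22, adjusted p = 0.0053), a call lost, of 14 alternatives, only without SCs CTRL replicate 1 (adjusted p = 0.0578). Against SCs DT it fell by 0.69 (adjusted p = 0.0495), a call that held in 5 of 14 alternatives, and only without α7Sca1 replicate 1 among the fits with a library left out (adjusted p = 0.0298), the other 5 giving 0.0961 to 0.226. Lama4 rose by 1.48 against SCs DT (standard error 0.30, adjusted p = 0.0109) and rose by 1.04 against SCs CTRL (standard error 0.30, adjusted p = 0.0360). The calls held in 11 and 8 of 14 alternatives. Against SCs DT the adjusted p was 0.086 and 0.076 without SCs DT replicate 1 or 2 and 0.0551 without α7Sca1 replicate 1. Against SCs CTRL it was 0.221 without SCs CTRL replicate 2, 0.0831 and 0.0833 without SCs DT replicate 1 or 2, and 0.151 without α7Sca1 replicate 1.

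Genes of other cell types also differed between the groups. Myh11, the smooth muscle myosin, was at 36.9 to 59.4 RPKM in the SC libraries and at 3.33 and 1.58 RPKM in α7Sca1 cells. Acta2 was at 412 to 875 RPKM against 80.2 and 15.3 RPKM. Over the 7 pericyte and smooth muscle genes the summed level was 607 and 658 RPKM in SCs CTRL, 1129 and 818 in SCs DT, and 211 and 78.8 in α7Sca1 cells, and none was at 0. In α7Sca1 cells 6 of the 7 were lower in both libraries than in every SCs DT library, where 36.4% of all genes were, and 4 than in every SCs CTRL library, where 38.1% were. The pericyte gene Kcnj8 was at 7.06 and 3.14 RPKM in SCs CTRL, 6.87 and 9.54 in SCs DT, and 10.7 and 4.25 in α7Sca1 cells, which overlapped. Between the SC groups 5 of 7 were higher in both SCs DT libraries, as Lama5 was, where 21.6% of all genes were, and none passed the threshold. The 6 Schwann and glial genes summed to 192 to 436 RPKM in SCs and to 59.7 and 26.0 RPKM in α7Sca1 cells. Of 7 endothelial genes, 4 were lower in both α7Sca1 libraries than in every SCs DT library, and 5 than in every SCs CTRL library. The shares of all genes were 36.4% and 38.1%. Fibroblast and fibroadipogenic progenitor genes numbered 7, Ly6a among them. In both α7Sca1 libraries 6 of these were higher than in every SCs DT library, where 30.8% of all genes were. Against SCs CTRL, 2 were higher and 2 lower. The adipocyte gene Cfd alone stood at 7389 RPKM in both α7Sca1 libraries, a value that was the maximum of each of the 6 libraries. The 7 adipocyte genes, Cfd among them, summed to 95.8 and 72.0 RPKM in SCs CTRL and to 225 and 626 in SCs DT. In α7Sca1 cells, where Lama4 was highest, these genes summed to 10711 and 10536 RPKM. Of these, 6 of 7 were higher in both SCs DT than in both SCs CTRL libraries, and Cfd, the gene of adipsin, rose (4.04 and 4.13 RPKM, then 72.0 and 379 RPKM, adjusted p = 0.0346), a call of Cfd that held in 6 of 14 alternatives, among the fits with a library left out only without SCs DT replicate 1 (adjusted p = 0.0357, up to 0.387 in the others). The part of these cell types in the levels of Itga8, Lama5 and Lama4 was not tested.

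Among the β and γ chains, Lamb1 and Lamb2 differed in their pattern. Lamb1, the β1 chain of most tissues (chr12:31950099-32014509), was at 7.79 and 5.71 RPKM in SCs CTRL, 5.63 and 6.10 in SCs DT, and 12.7 and 11.0 in α7Sca1 cells. Both α7Sca1 libraries lay above every SC library. It rose by 0.91 against SCs DT (standard error 0.21, adjusted p = 0.0180), a call lost, of 14 alternatives, only without SCs DT replicate 1 or 2 (adjusted p = 0.123 and 0.0862). Against SCs CTRL it rose by 0.74 (standard error 0.21, adjusted p = 0.0345), and the call held in 7 of 14 alternatives, among the fits with a library left out only without α7Sca1 replicate 2 (adjusted p = 0.0454), the other 5 giving 0.0627 to 0.202. Lamb2, the β2 chain of the neuromuscular junction and of vessels (chr9:108382193-108392861), was the most abundant laminin chain in every library, at 33.9 and 25.3 RPKM, 29.5 and 25.5 RPKM, and 21.3 and 11.3 RPKM in the 3 groups. Its differences of -0.78 and -0.87 in α7Sca1 cells did not pass the threshold (adjusted p = 0.107 and 0.0756). Without α7Sca1 replicate 1 both passed (adjusted p = 0.019 and 0.0147), and against SCs CTRL also with a replicate block (adjusted p = 0.0367). The ratio of Lamb2 to Lamb1 was 4.18 to 5.23 in the SC libraries and 1.67 and 1.02 in α7Sca1 cells.

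Lamc1, the γ1 chain found in most laminins (chr1:155066052-155179916), was at 8.03 and 7.79 RPKM in SCs CTRL, 6.57 and 5.09 in SCs DT, and 5.09 and 3.96 in α7Sca1 cells. The lower SCs DT library and the higher α7Sca1 library had the same value. Lamc1 fell against SCs CTRL by 0.70 (standard error 0.21, adjusted p = 0.0393), a call that held in 6 of 14 alternatives, among the fits with a library left out only without α7Sca1 replicate 1 (adjusted p = 0.0307), the other 5 giving 0.0664 to 0.164. Against SCs DT the difference was -0.31 (adjusted p = 0.302). Lamb3, the β3 chain of epithelial laminin, was at 0.117 and 0.169 RPKM in SCs CTRL, 0.351 and 0.498 in SCs DT, and 0.645 and 0.387 in α7Sca1 cells. It rose in α7Sca1 cells against SCs CTRL (log2 difference 0.40, adjusted p = 0.0461), a call that held in 4 of 13 alternatives, with adjusted p from 0.0241 to 0.179 with a library left out.

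The promoters of Itga8, Lama5 and Lamb1 are shown because Itga8 and Lama5 had the lowest log2 differences in α7Sca1 cells against SCs DT and Lamb1 was the rising member with a sequence at hand. They are taken from RefSeq on GRCm38.p6, 250 bases before to 50 bases after the gene start, 5′ to 3′ on the gene's strand. Of the 37 members, 23 matched a promoter. Capitals mark GC boxes (GGGCGG or its complement CCGCCC) and E-boxes (CAGCTG on both strands, and CACCTG or its complement CAGGTG), which do not overlap each other here.
Itga8, chr2:12301895-12302194, minus strand: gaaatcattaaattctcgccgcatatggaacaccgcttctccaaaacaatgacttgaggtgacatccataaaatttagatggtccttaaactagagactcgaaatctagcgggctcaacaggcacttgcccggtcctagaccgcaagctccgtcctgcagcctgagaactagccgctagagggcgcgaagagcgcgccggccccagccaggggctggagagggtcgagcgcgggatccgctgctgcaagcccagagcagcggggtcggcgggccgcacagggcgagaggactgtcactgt
Lama5, chr2:180225810-180226109, minus strand: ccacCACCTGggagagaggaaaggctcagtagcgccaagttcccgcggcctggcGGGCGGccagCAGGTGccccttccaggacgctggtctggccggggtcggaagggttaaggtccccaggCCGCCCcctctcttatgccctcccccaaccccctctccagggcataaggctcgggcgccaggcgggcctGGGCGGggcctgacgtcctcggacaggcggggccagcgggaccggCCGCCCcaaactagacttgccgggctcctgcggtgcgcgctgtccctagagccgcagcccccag
Lamb1, chr12:31265043-31265342, plus strand: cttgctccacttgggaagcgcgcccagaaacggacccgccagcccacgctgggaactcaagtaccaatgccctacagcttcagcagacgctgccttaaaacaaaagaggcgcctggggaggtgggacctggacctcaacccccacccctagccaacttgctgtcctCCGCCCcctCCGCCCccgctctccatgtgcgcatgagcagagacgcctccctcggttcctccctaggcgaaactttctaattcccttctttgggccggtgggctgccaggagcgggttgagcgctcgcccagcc
The Lama5 window held 4 GC boxes and 2 E-boxes of the CACCTG kind, the Lamb1 window held 2 GC boxes, and no searched motif was in the Itga8 window. They held 24, 18 and 23 CpG dinucleotides, where the median of 32851 mouse promoters of 300 bases was 7 (quartiles 3 and 20). Of those promoters, 35.7% held a GC box, 16.3% held CAGCTG, 20.2% held CACCTG or its complement, and 42.6% held none of these letters. A match describes the letters and not a bound site.

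In SCs DT against SCs CTRL, Lama5 differed by 0.77 (95% confidence interval 0.25 to 1.30, unadjusted p = 0.00973, adjusted p = 0.266) and Lama2 by -0.56 (interval -1.07 to -0.05, unadjusted p = 0.0366, adjusted p = 0.437). The ratio of Lama5 to Lama2 was 0.651 and 0.797 in SCs CTRL and 2.78 and 1.55 in SCs DT, and was not tested. Lamc1 differed by -0.39 (interval -0.88 to 0.10, adjusted p = 0.593), Itgb2 by -0.65 (interval -1.54 to 0.25, adjusted p = 0.644), Itga5 by 0.45 (interval -0.32 to 1.21, adjusted p = 0.732) and Itga8 by 0.19 (interval -0.22 to 0.61, adjusted p = 0.812). For Itga7 the difference was 0.03 (interval -0.48 to 0.54), and for Itgb1 0.29 (interval -0.53 to 1.11). These intervals include changes of a size that the test could have missed.

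Genes that work with these chains were counted in the same way. Of the 24 integrin adaptors and activators tested, 1 rose and 11 fell in α7Sca1 cells against SCs DT (median -0.63), and 2 rose and 11 fell against SCs CTRL (median -0.67). Of all genes tested, 14.6% rose and 15.6% fell against SCs DT (median -0.04), and 15.1% rose and 17.3% fell against SCs CTRL (median -0.06). Among those that fell were Ilk, the integrin-linked kinase (65.0 to 81.4 RPKM in SCs, 37.2 and 30.2 RPKM in α7Sca1 cells, adjusted p = 0.0097 against SCs DT), and Zyx, the focal adhesion protein zyxin (31.0 to 36.1 RPKM, then 13.8 and 8.78 RPKM, adjusted p = 0.00514). The call of Ilk was lost without SCs DT replicate 1 or 2 (adjusted p = 0.0585 to 0.0963), and that of Zyx without SCs DT replicate 1 (adjusted p = 0.063). Itgb1bp1, which encodes a protein that binds the β1 tail and restrains integrin activation, rose to 17.9 and 21.7 RPKM in α7Sca1 cells, against 3.70 to 4.91 RPKM in SCs (log2 difference 1.87 against SCs DT, adjusted p = 0.000658). Itgb1bp2, the muscle protein melusin that binds the β1 tail, was at 1.53 and 2.73 RPKM in SCs CTRL, 9.48 and 12.6 in SCs DT, and 0.394 and 0.555 in α7Sca1 cells. It was the only gene of this list called between SCs DT and SCs CTRL (log2 difference 1.96, adjusted p = 0.0285). That call of Itgb1bp2 held in 5 of 14 alternatives and was lost without any single library (adjusted p = 0.083 to 0.335).

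Of the 18 basement membrane partners and other laminin receptors, 0 rose and 6 fell against SCs DT (median -0.28), and 0 rose and 7 fell against SCs CTRL (median -1.26), beside the same shares of all genes, 15.6% and 17.3% lower. The list summed to 2457 and 977 RPKM in SCs CTRL replicates 1 and 2. It summed to 775 and 689 RPKM in SCs DT and to 848 and 459 RPKM in α7Sca1 cells, which overlapped. A single gene of the list gave 1818 and 495 RPKM in SCs CTRL, 309 and 324 in SCs DT, and 587 and 282 in α7Sca1 cells. The part of that spread between the SCs CTRL libraries in the median against SCs CTRL was not tested. No call was made between SCs DT and SCs CTRL. Dag1, which encodes dystroglycan, the laminin receptor of the dystrophin complex, was at 108 and 123 RPKM in SCs CTRL, 103 and 78.7 in SCs DT, and 20.6 and 13.6 in α7Sca1 cells. It fell by 2.36 against SCs DT (adjusted p = 0.00114) and fell by 2.71 against SCs CTRL (adjusted p = 0.000642). Bcam, a receptor for the laminin α5 chain, was at 43.9 to 80.4 RPKM in SCs and at 9.55 and 3.10 RPKM in α7Sca1 cells, and fell by 3.28 against SCs DT (adjusted p = 0.00209). Nid1, which links laminin to collagen IV, was at 7.11 to 21.4 RPKM in SCs and at 32.9 and 27.0 RPKM in α7Sca1 cells, a difference that did not pass the threshold (1.31 against SCs DT, adjusted p = 0.0651).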

How the data were processed

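RNA-Seq was measured in 6 libraries, 2 per group, each made by the authors from 5 ng of total RNA by SMART-seq2 with 50 bp single-end reads. Groups and replicate numbers came from the sample labels. The authors deposited RPKM values after alignment to mm9 with TopHat2 2.0.8 (submitters' processing notes; the study's methods name another version). Sorted by size, the 6 libraries hold nearly the same values (largest gap 0.0192 RPKM), and the step behind this is not given in the sources used here. Counts and depth were not at hand, so no interval for counting error is given. A deposited table of the authors' fold changes and p-values, with 10 columns of values per sample, was not used.

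All 6 libraries entered a single model in limma 3.58.1 (R 4.3.3), on log2(RPKM + 1) of genes with a maximum above 0.25 RPKM, with a variance trend, no replicate block and Benjamini-Hochberg adjustment over all 13934 genes tested. The fit has 3 residual and 4.29 prior degrees of freedom. It was tested on simulated data. Libraries are pools of mice, and whether pools share mice or a sorting day was not stated, so p-values measure the spread between these libraries. Some genes of these lists are counted but not reported here by name. Members, lists and rules were chosen with earlier results of these data known. Full values are given for members called, or filled up to 6 by unadjusted p, in SCs DT against SCs CTRL with a mean of at least 5 RPKM, for members called with at least 5 RPKM and no overlap in the α7Sca1 comparisons, and for 11 fixed genes. Alternatives were pseudocounts of 0.1 and 0.5 RPKM, no filter or a maximum above 1 RPKM, rescaling by median ratios, a replicate block, eBayes without trend, the groups alone, and each library left out. Coordinates of genes are from GENCODE M1 on mm9. The library protocol keeps no strand, and exons of other genes cover 5.07% of the exonic bases of Itga8, 7.66% of Itgb4 and 5.90% of Itgav, so that reads there cannot be assigned. Python 3.11.15, pandas 2.3.3 and matplotlib 3.10.9 were used for tables and figures.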

Additional observations from a re-analysis of the deposited data

How the results depend on the processing

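The direction of the named members' differences was kept in 611 of 616 values under the alternatives. Many of these values could not change direction. The filters, eBayes without trend, the replicate block and the groups alone leave the estimated difference as it was. So does leaving out a library of the group that is not compared. The 5 reversals all lay in SCs DT against SCs CTRL and were not called in any fit: Itgam 0.051 and Itgb1 -0.059 without SCs DT replicate 1, Lamb1 0.033 and Lamb2 0.11 without SCs CTRL replicate 1, and Lamb2 0.0086 without SCs DT replicate 2. With a library left out these differences ran from -0.53 to 0.051 for Itgam, -0.059 to 0.64 for Itgb1, -0.36 to 0.033 for Lamb1 and -0.30 to 0.11 for Lamb2. Of the 616 values, 76 were lost calls and 14 gained calls. No member was called in SCs DT against SCs CTRL under any alternative.

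In α7Sca1 cells against SCs DT the members that rose numbered 2 with eBayes without trend and 0 to 6 with a library left out, and those that fell numbered 5 with the groups alone and 3 to 9 with a library left out. Against SCs CTRL, 1 was higher with no filter, 3 with eBayes without trend, 1 with the groups alone and 0 to 8 with a library left out, and 3 to 11 were lower. Over all genes, SCs DT against SCs CTRL gave 2 higher and 2 lower with no filter, 28 and 7 with eBayes without trend, and 1 and 0 with the groups alone. With a library left out it gave 0 to 21 higher and 0 to 17 lower. In α7Sca1 cells against SCs DT 825 to 2340 genes were higher and 765 to 2051 lower, and against SCs CTRL 878 to 2403 and 863 to 2287. The cause was not tested.

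Rescaling by median ratios moved the median difference of all genes from -0.043 to 0.006 in α7Sca1 cells against SCs DT. Against SCs CTRL it moved from -0.062 to 0.009. The median change per gene was 0.07 and 0.09, and library scales moved by 0.11 and 0.14 on the log2 scale. Same-numbered libraries deviated together with r = -0.131 (SCs CTRL and SCs DT), 0.162 (SCs CTRL and α7Sca1 cells) and 0.255 (SCs DT and α7Sca1 cells) across 13934 genes, which are not independent, so the numbers were not taken as pairs. With a replicate block 5 members rose and 7 fell against SCs DT, 5 and 12 against SCs CTRL, and 67 genes were higher and 25 lower in SCs DT than in SCs CTRL. The block lost the calls of Itga7 (adjusted p = 0.0525) and Lama2 (0.0532) against SCs DT and of Itga4 (0.057), Itga7 (0.057) and Lamb3 (0.0596) against SCs CTRL, and gained those of Itga5 (0.0334) and Itgb4 (0.0439) against SCs DT and of Itgb4 (0.0278) and Lamb2 (0.0367) against SCs CTRL. With the numbers crossed, an alternative chosen after seeing the data, 54 genes were higher, 14 lower and 0 members were called. Depth is unknown and 2 libraries a group limit what can be called.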
